A study of Mus musculus with 56 samples.

Results

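Zalfermin added to low-dose semaglutide was examined in 16 of the 56 livers of the series, chosen by their labelled treatment: 8 mice labelled with both drugs (the combination) and 8 labelled with semaglutide at its low dose. All 16 were male C57BL/6J mice that had eaten the AMLN diet, rich in fat, fructose and cholesterol, for 36 weeks before dosing and through it, and had been selected by liver biopsy for steatosis and fibrosis (DIO-MASH mice, a diet-induced model of metabolic dysfunction-associated steatohepatitis). Per the study's methods, both groups were injected under the skin once a day for 8 weeks with semaglutide at 3 µg/kg, and the combination also with zalfermin at 0.05 mg/kg as a separate injection. The design text that accompanies the deposited counts instead describes the combination as both high doses, and the files do not settle it. If that were so, the comparison would also change the dose of semaglutide. The contrast with low-dose zalfermin alone, given below, would then also mix in the dose of zalfermin. The other 40 mice, 8 in each group, received vehicle on a chow diet or, as DIO-MASH mice, vehicle, low-dose zalfermin, high-dose zalfermin (0.2 mg/kg) or high-dose semaglutide.

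Zalfermin is a long-acting analog of FGF21, a hormone that the liver secretes and that signals through FGF receptors, FGFR1c above all, only where the co-receptor beta-Klotho (Klb) is also present. Much of its action on the liver passes through adipose tissue and the brain, where it alters energy expenditure, lipid handling and the release of pituitary and adrenal hormones. Semaglutide is an agonist of the GLP-1 receptor, which hepatocytes have little of, and acts mainly by lowering food intake.

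Gene expression is given as CPM, the authors' read counts scaled to a common library size after edgeR's TMM normalization. Library sizes were 6850790 to 17810943 reads in the combination and 8037163 to 20885786 in low-dose semaglutide, and the median over the series was 12206788. Mice are numbered 1 to 8 within a group in the order of their labels. Low-dose semaglutide mouse 6 stood apart: across genes, its Spearman correlation with its own group averaged 0.967, against 0.981 to 0.986 for the other 7, and it was 0.974 with chow-fed mice and 0.959 with DIO-MASH vehicle mice. The study left out 1 mouse of this group without naming it in the sources used here. The main counts are therefore given with all 56 mice in the fit and with the 55 that remain without mouse 6. Single genes are given with 56 mice, with the value without mouse 6 beside it for the main ones; each gene named below as called with 56 mice was also called without mouse 6. Albumin (Alb), the defining product of hepatocytes, was at 61160.1 to 107894 CPM (median 84229.6) in the combination and 52820.5 to 83176 CPM (median 61123) in low-dose semaglutide. Of 14 pancreas and 11 intestine and stomach markers, 12 and 8 were under the filter on low counts. The livers were sampled in bulk, so fewer cells of a type and less RNA per cell cannot be told apart.

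The promoters of 6 genes called higher in the combination are shown first: the pairs Cyp2b9 and Cyp2b13 and Cyp2c40 and Cyp2c69, to show how alike neighboring genes of a pair are, and Slc22a26 and Cry1, which hold motifs of factors named below. Each run spans 250 bases before to 50 bases after the annotated start (RefSeq, GRCm38.p6) in the direction of transcription. Capitals mark 5 motifs searched on both strands, which do not overlap each other here: AGGTCA (a core motif of nuclear receptors), TTGCNCAA (a C/EBP-type site), TTCNNNGAA (a STAT-type site), TTATGNAA (a site for D-box factors such as Nfil3) and CACGTG (an E-box, bound by the clock factor pair that includes Arntl).
Cyp2b9 (chr7:26173159-26173458, plus strand): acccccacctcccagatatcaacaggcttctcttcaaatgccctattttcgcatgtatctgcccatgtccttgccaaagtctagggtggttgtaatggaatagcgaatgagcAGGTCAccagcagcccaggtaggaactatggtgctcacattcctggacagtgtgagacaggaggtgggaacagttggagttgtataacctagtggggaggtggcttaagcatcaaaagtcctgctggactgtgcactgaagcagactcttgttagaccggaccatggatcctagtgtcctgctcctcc
Cyp2b13 (chr7:26061245-26061544, plus strand): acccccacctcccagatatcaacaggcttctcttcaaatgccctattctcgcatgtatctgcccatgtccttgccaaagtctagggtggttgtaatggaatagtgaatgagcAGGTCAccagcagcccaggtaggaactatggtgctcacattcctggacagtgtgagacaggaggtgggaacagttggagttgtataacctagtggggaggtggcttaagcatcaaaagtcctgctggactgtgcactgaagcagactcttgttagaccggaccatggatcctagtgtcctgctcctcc
Cyp2c40 (chr19:39812765-39813064, minus strand): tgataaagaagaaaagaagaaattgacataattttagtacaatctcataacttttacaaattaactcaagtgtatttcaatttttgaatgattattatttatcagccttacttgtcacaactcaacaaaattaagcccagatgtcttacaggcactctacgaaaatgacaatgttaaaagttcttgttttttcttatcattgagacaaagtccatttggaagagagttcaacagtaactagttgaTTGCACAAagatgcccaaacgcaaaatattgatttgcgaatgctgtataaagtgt
Cyp2c69 (chr19:39886720-39887019, minus strand): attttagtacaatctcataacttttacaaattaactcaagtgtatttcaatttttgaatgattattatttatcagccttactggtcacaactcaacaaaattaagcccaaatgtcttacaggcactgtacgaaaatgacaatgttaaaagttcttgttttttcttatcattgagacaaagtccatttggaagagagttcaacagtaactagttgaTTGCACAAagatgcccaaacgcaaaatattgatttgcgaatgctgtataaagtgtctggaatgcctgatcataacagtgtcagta
Slc22a26 (chr19:7802618-7802917, minus strand): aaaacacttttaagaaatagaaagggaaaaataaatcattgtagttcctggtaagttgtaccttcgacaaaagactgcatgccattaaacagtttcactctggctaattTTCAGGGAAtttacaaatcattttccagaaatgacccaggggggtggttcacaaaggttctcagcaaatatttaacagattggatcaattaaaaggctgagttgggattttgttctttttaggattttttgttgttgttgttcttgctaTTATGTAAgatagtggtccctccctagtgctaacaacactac
Cry1 (chr10:85185005-85185304, minus strand): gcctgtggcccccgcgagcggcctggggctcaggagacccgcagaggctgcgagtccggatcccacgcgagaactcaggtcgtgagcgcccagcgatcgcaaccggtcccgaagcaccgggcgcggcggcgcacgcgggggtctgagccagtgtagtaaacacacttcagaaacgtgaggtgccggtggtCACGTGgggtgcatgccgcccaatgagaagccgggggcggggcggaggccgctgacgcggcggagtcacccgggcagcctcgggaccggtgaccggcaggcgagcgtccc
The Cyp2b9 and Cyp2b13 promoters were the same at 298 of 300 bases (99.3%), and both hold AGGTCA from 138 bases before the start, a motif found in 16.3% of 32851 promoters. Those of Cyp2c40 and Cyp2c69 matched at 267 of 270 bases (98.9%) when shifted by 30 bases, and both hold TTGCNCAA (2.94% of promoters). Slc22a26 holds TTCNNNGAA (8.3%) and TTATGNAA (3.38%), and Cry1 holds CACGTG (7.15%) 60 bases before its start. A match of letters is not a binding site. Transcripts also share sequence with other genes, not only within these pairs: 45.9% of the stretches of 75 bases in Cyp2c40, 42.6% in Cyp2c69, 41.3% in Cyp4a12b, 40.8% in Cyp4a12a, 22.1% in Cyp2a4, 16.4% in Cyp2b13 and 5.16% in Cyp2b9 also occur in another annotated gene. How reads shared by such genes, or by genes overlapping on opposite strands, were counted is not given in the sources used here, so the values of these genes are uncertain as to which copy they describe.

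With zalfermin added to low-dose semaglutide, the genes called higher included cytochrome P450 and transporter genes known for higher expression in female than in male mouse liver, and those called lower included male-biased P450s, lipid droplet genes, collagens, Themis and Sdcbp2. Of 14105 genes tested, 594 (4.21%) differed between the groups (differentially expressed genes, DEGs), 272 (1.93%) higher and 322 (2.28%) lower in the combination, by edgeR's quasi-likelihood test at a Benjamini-Hochberg adjusted p of 0.05. Without mouse 6 there were 1178 (8.35%), 555 higher (3.93%) and 623 lower (4.42%), and these included 589 of the 594. The median absolute log2 fold change of the 594 was 0.54, where 1 unit is a factor of 2, and 122 exceeded 1 unit (42 higher, 80 lower). The 8 mice of each group did not overlap at all in 48 genes (0.34% of those tested) over the 16 mice and in 278 (1.97%) over the 15 without mouse 6. With a fit of only these groups in place of all 7, 298 genes differed.

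**Figure D1:**
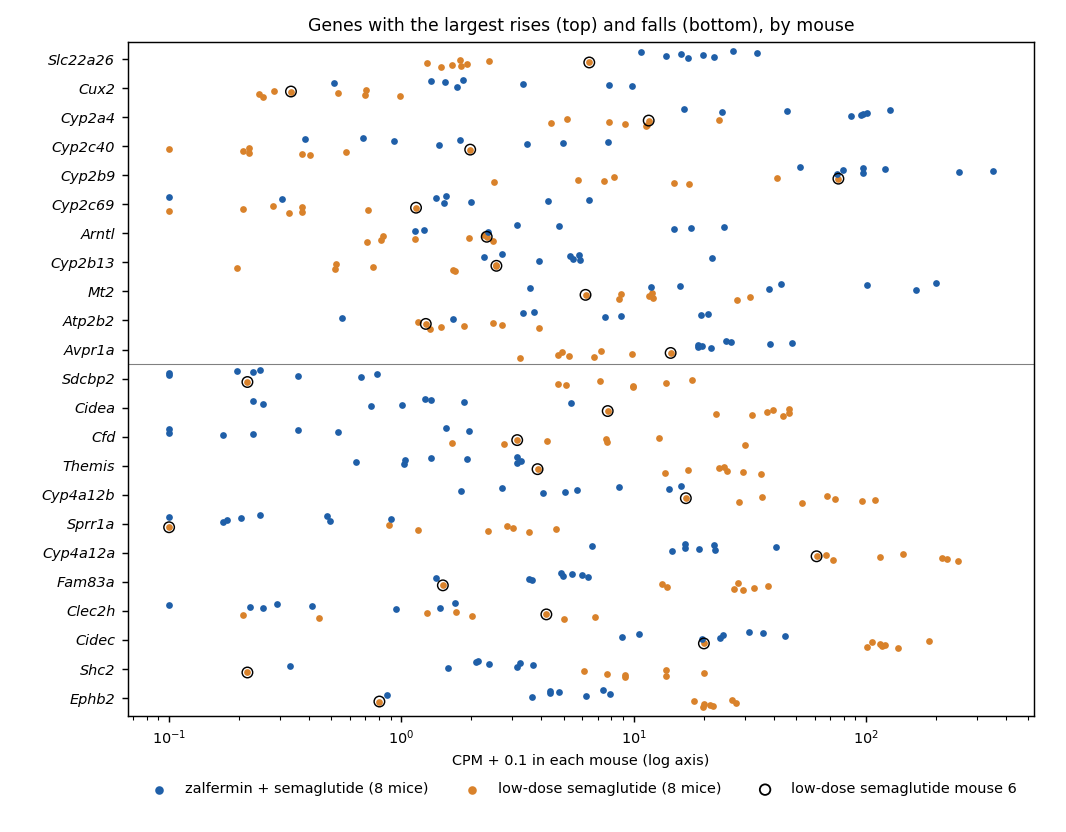
Expression of 11 of the 12 DEGs with the largest rises (top) and the 12 with the largest falls (bottom) in each of the 16 mice, as CPM + 0.1 on a log axis. Each point is 1 mouse, in blue for the combination and in orange for low-dose semaglutide, and circles mark low-dose semaglutide mouse 6, which lies among or near the combination mice for Sdcbp2, Themis, Fam83a, Cidec, Shc2 and Ephb2.

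Of the 33 gene lists, that of female-biased genes had the highest median. The lists and their members were chosen with earlier results of these data known, so this rank is a description and not a test. In mice, the pattern of growth hormone release from the pituitary, pulsatile in males and more even in females, sets sex-biased expression of many liver P450s, sulfotransferases and major urinary proteins, through STAT5 and the repressors Bcl6 (male-biased) and Cux2 (female-biased). Of 26 such genes listed, 22 passed the filter, 20 of them had a positive log2 fold change, 11 were called higher and 0 lower (13 and 0 without mouse 6). Their median log2 fold change was 1.54 (1.75 without mouse 6), against a median of -0.02 over all 14105 genes. The other 4 (Cyp3a41a, Cyp3a41b, Sult2a1 and Sult3a1) were under the filter on low counts.

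Slc22a26, a transporter of the organic anion family, ranged from 10.6 to 33.7 CPM (median 18.3) in the combination and from 1.19 to 6.33 CPM (median 1.70) in low-dose semaglutide. The groups did not overlap, and the highest semaglutide value was that of mouse 6, with the other 7 mice at 1.19 to 2.28 CPM. Its log2 fold change was 3.20 ± 0.49 (SE; adjusted p = 3.72e-05), and 3.57 without mouse 6 (adjusted p = 3.58e-06). Cux2, the female-biased repressor, rose by 3.04 ± 0.76 (adjusted p = 0.0116), with 0.414 to 9.76 CPM (median 1.69) in the combination and 0.143 to 0.887 CPM (median 0.334) in low-dose semaglutide, and the groups overlapped.

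The P450s in this group are enzymes of steroid and drug oxidation. Cyp2b9 ranged from 51.8 to 351 CPM (median 96.7) in the combination and from 2.40 to 75.9 CPM (median 11.4) in low-dose semaglutide. The single overlap came from mouse 6 at 75.9 CPM, and the other 7 mice were at 2.40 to 41.2 CPM. The log2 fold change was 2.74 ± 0.73 (adjusted p = 0.0199), and 3.37 without mouse 6 (adjusted p = 0.00289). Its neighbor Cyp2b13, whose promoter is given above, rose by 2.51 ± 0.54 (adjusted p = 0.00341), with 2.17 to 21.5 CPM (median 5.30) against 0.0951 to 2.46 CPM (median 1.11). Cyp2a4, a steroid 15-alpha-hydroxylase, rose by 2.85 ± 0.52 (adjusted p = 0.000441), with 16.4 to 127 CPM (median 90.8) against 4.28 to 23.1 CPM (median 10.1). In chow-fed mice against DIO-MASH vehicle mice, Cyp2a4 had the opposite sign, -3.89 (adjusted p = 1.21e-05). The near-identical Cyp2c40 and Cyp2c69 rose by 2.80 ± 0.77 (adjusted p = 0.0251) and 2.67 ± 0.77 (adjusted p = 0.034) from medians of 0.197 and 0.251 CPM, and both lost the threshold without any one of combination mice 3 or 4 or semaglutide mice 2, 3, 5, 7 or 8, Cyp2c69 also without semaglutide mouse 1 (adjusted p up to 0.0805 and 0.107). Cyp17a1, which makes androgen precursors, rose by 1.68 ± 0.36 (adjusted p = 0.00256), with 17.6 to 124 CPM (median 71.5) against 7.67 to 35.1 CPM (median 22.6). Sult2a2, a bile acid and steroid sulfotransferase, had a log2 fold change of 3.7 ± 0.89 (adjusted p = 0.00964) but was at most 1.01 CPM in any combination mouse. Without mouse 6, the log2 fold changes were 2.98 for Cux2, 2.73 for Cyp2b13, 2.88 for Cyp2a4, 3.56 for Cyp2c40, 3.04 for Cyp2c69 and 1.7 for Cyp17a1.

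Male-biased genes lay on the other side. Of 18 listed, 17 passed the filter, 16 had a negative log2 fold change, 0 were called higher and 3 lower (5 without mouse 6), and the median was -1.08 (-1.21 without mouse 6). The count of 3 was 6 with DESeq2's Wald test or with only these groups in the fit, and 7 without combination mouse 5. Cyp4a12a and Cyp4a12b, male-specific omega-hydroxylases of arachidonic acid, were at 6.51 to 41 CPM (median 17.8) and 1.70 to 15.8 CPM (median 5.26) in the combination, against 61.1 to 248 CPM (median 129) and 16.7 to 109 CPM (median 60.2) in low-dose semaglutide. Neither overlapped between the groups, and for both the lowest semaglutide value was that of mouse 6. Cyp4a12a fell by 2.85 ± 0.40 on the log2 scale (adjusted p = 4.42e-06) and Cyp4a12b by 3.12 ± 0.45 (adjusted p = 8.88e-06). Mup20, a male major urinary protein that carries pheromones, fell by 1.08 ± 0.27 (adjusted p = 0.0106), with 1095 to 3586 CPM (median 2292) against 1839 to 7139 CPM (median 4781), and without mouse 6 its groups did not overlap. The values without mouse 6 were -2.96 for Cyp4a12a, -3.26 for Cyp4a12b and -1.21 for Mup20. Hsd3b5, a male-specific steroid dehydrogenase, had a log2 fold change of -4.80 ± 1.74 (adjusted p = 0.109) that rested on mouse 6: this mouse had 53.5 CPM and the other 7 had 0 to 2.91 CPM, and without it the value was -2.01 (adjusted p = 0.595). Hsd3b5 was chosen after its values were seen.

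The growth hormone and IGF axis had 1 member higher and 1 lower of 16 (2 and 1 without mouse 6). Igfbp2, an IGF-binding protein secreted by hepatocytes, rose by 0.96 ± 0.16 (adjusted p = 8.77e-05), with 554 to 858 CPM (median 765) against 298 to 543 CPM (median 353) and no overlap. Igfbp3, which carries most circulating IGF1 and is made by non-parenchymal cells, fell by 0.96 ± 0.19 (adjusted p = 0.00139), and overlapped only through mouse 6. Without that mouse, Igfbp2 had a value of 1.06 and Igfbp3 of -1.02. Igf1 itself had a log2 fold change of 0.07 ± 0.12 (adjusted p = 0.813) and the growth hormone receptor Ghr -0.04 ± 0.12 (adjusted p = 0.919). The STAT5 targets Socs2 and Cish had values of 0.80 ± 0.39 (adjusted p = 0.269) and 1.36 ± 0.58 (adjusted p = 0.192), neither past the threshold.

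Lipid droplet genes coat or fuse the fat stores of a cell. Of 18 tested, 4 were called lower (5 without mouse 6) and 0 higher, with a median of -0.20. Cidea, a droplet-fusion protein of brown fat that fatty livers switch on, was at 0.130 to 5.27 CPM (median 1.04) in the combination and 7.62 to 46.7 CPM (median 38.5) in low-dose semaglutide. The groups did not overlap, and mouse 6 was the lowest of its group at 7.62 CPM, with the others at 22.6 to 46.7 CPM. Cidea fell by 4.50 ± 0.46 on the log2 scale (adjusted p = 2.29e-09), and by 4.65 without mouse 6 (adjusted p = 2.25e-10). Its relative Cidec fell by 2.19 ± 0.43 (adjusted p = 0.00102), with 8.79 to 44.5 CPM (median 23.7) in the combination and 19.9 to 187 CPM (median 116) in low-dose semaglutide. Without mouse 6, which was at 19.9 CPM, the Cidec groups did not overlap (other semaglutide mice 101 to 187 CPM). The perilipins Plin4 and Plin2, coats of lipid droplets, fell too, at -1.65 ± 0.39 (adjusted p = 0.00742) and -0.51 ± 0.15 (adjusted p = 0.0391).

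Of 14 genes of PPARG and fatty acid uptake, 3 were lower: Mogat1, an acyltransferase of triglyceride synthesis (-1.58 ± 0.26, adjusted p = 0.000111), the fatty acid carrier Fabp4 (-0.99 ± 0.24, adjusted p = 0.0087) and Pparg itself (-0.60 ± 0.16, adjusted p = 0.0199). The uptake receptor Cd36 did not pass (-0.21, adjusted p = 0.478). None of 20 lipogenesis genes passed the threshold, 14 had a positive value, and Mlxipl, a carbohydrate-responsive factor, was called higher without mouse 6, without combination mouse 2 or with DESeq2. Fatty acid synthase Fasn had a log2 fold change of 0.25 ± 0.35 (adjusted p = 0.772). Of 32 genes of fatty acid oxidation and ketogenesis, only the omega-oxidation P450 Cyp4a14 rose (1.18 ± 0.34, adjusted p = 0.0308), and without mouse 6 there were 6 higher and 1 lower. Cidea, Fabp4 and Cfd (complement factor D, -4.24 ± 0.70, adjusted p = 0.000102) are also adipocyte markers, 3 of whose 8 tested members were lower. The defining adipocyte markers Adipoq, Lep, Retn and Plin1 were under the filter on low counts in these livers. The summed level of the 8 ranged from 2136 to 5227 CPM in the combination and from 2995 to 7441 CPM in low-dose semaglutide, where mouse 6 was the highest and the others reached 4774 CPM. Car3 alone was at 1045 to 3531 CPM and at 1627 to 4341 CPM, and Cidea, Fabp4 and Cfd each at 46.7 CPM or less. The sum therefore says little of adipocytes, whose part in the falls of Cidea, Fabp4 and Cfd was not tested.

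In the liver, the urea cycle turns ammonia from amino acid breakdown into urea. Of 34 genes of the urea cycle and amino acid breakdown, 12 were higher and 0 lower (20 and 0 without mouse 6), with a median of 0.31 (0.48 without mouse 6). Argininosuccinate lyase (Asl) was at 524 to 906 CPM (median 588) in the combination and 280.5 to 620.2 CPM (median 319) in low-dose semaglutide. The overlap came from mouse 6 at 620.2 CPM, and the other 7 mice were at 280.5 to 436 CPM. Asl rose by 0.82 ± 0.15 (adjusted p = 0.00038), and by 0.97 without mouse 6 (adjusted p = 5.09e-06). The methionine enzymes Mat1a and Gnmt rose by 0.53 ± 0.11 (adjusted p = 0.00361) and 0.82 ± 0.18 (adjusted p = 0.00399), and the tyrosine enzyme Hpd by 0.69 ± 0.17 (adjusted p = 0.00872). Carbamoyl phosphate synthetase Cps1, the entry enzyme of the cycle, rose by 0.69 ± 0.20 (adjusted p = 0.0308), and by 0.95 without mouse 6 (adjusted p = 0.000369). The count of 12 was not steady: it was 4 with only these groups in the fit, and 5 to 7 without any one of combination mice 1, 3 or 5 or semaglutide mice 1, 2, 3, 4, 5 or 8. Periportal hepatocyte markers, which include Asl, Ass1 and Arg1, had 3 of 13 higher (6 without mouse 6) and pericentral markers 0 of 17 in either direction. Those 3 were the urea cycle members themselves, and the count was 1 without any of the same mice.

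**Figure D2:**
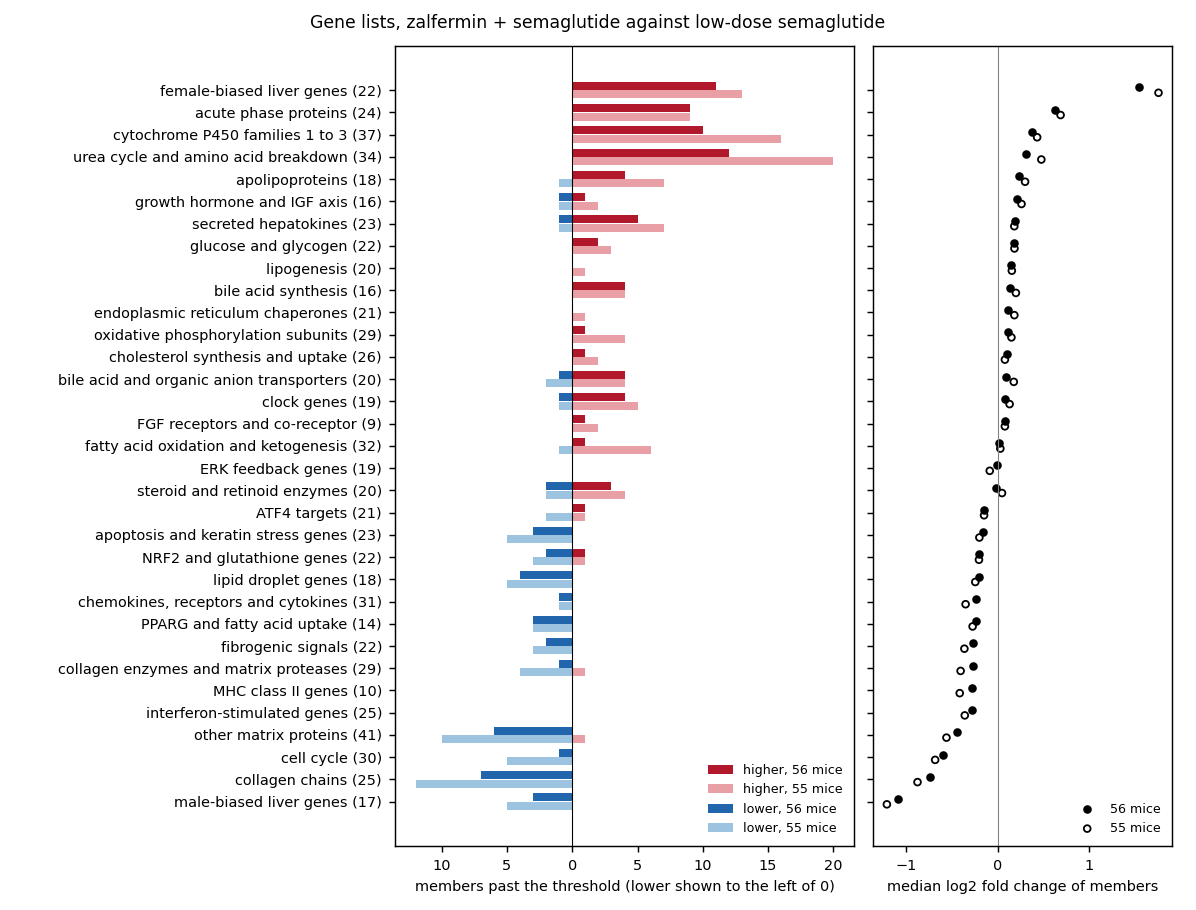
Members of 33 gene lists that passed the threshold, with the number tested in parentheses (left panel, higher to the right of 0 and lower to the left, dark bars for the fit of 56 mice and pale bars for 55 without mouse 6), and the median log2 fold change of the tested members (right panel, filled for 56 mice and open for 55). Female-biased genes have the highest median (1.54) and male-biased genes the lowest (-1.08), among lists chosen with earlier results of these data known.

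Of 37 tested P450s of families 1 to 3, 10 were higher and 0 lower (16 and 0 without mouse 6), among them, beside the female-biased ones, Cyp2c68 (0.93 ± 0.19, adjusted p = 0.00187), Cyp3a13 (0.83 ± 0.19, adjusted p = 0.00583) and Cyp3a25 (0.41 ± 0.10, adjusted p = 0.0135). Without semaglutide mouse 8, 6 were higher. Of 16 bile acid synthesis genes, 4 were higher: Cyp39a1, a 24-hydroxycholesterol hydroxylase, the 5-beta-reductase Akr1d1 (0.91 ± 0.17, adjusted p = 0.000687), Cyp2c70, which makes muricholic acids (1.11 ± 0.22, adjusted p = 0.00122), and the bile acid ligase Slc27a5 (0.46 ± 0.11, adjusted p = 0.0111). Cyp39a1 was at 45.5 to 78.4 CPM (median 69.5) against 20.0 to 33.2 CPM (median 27.6), with no overlap and a log2 fold change of 1.31 ± 0.14 (adjusted p = 8.29e-09). Cyp7a1, the rate-limiting enzyme of the classical pathway, did not pass (0.15 ± 0.35, adjusted p = 0.885).

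Among 20 transporters of bile acids and organic anions, 4 were higher and 1 lower (4 and 2 without mouse 6). The uptake transporter Slc10a1 (NTCP) rose by 0.61 ± 0.14 (adjusted p = 0.00445) and Slco1a4 by 0.94 ± 0.22 (adjusted p = 0.00582), whereas the basolateral exporter Abcc3 fell (-0.53 ± 0.14, adjusted p = 0.0221). The call of Abcc3 was lost with only these groups in the fit. Avpr1a, the vasopressin receptor of hepatocytes, rose by 1.98 ± 0.28 (adjusted p = 5.09e-06). Its levels were 18.7 to 48.1 CPM (median 23.1) in the combination and 3.14 to 14.3 CPM (median 5.89) in low-dose semaglutide, and the groups did not overlap. Apolipoproteins and their partners had 4 of 18 higher and 0 lower (7 and 1 without mouse 6). Apom, the carrier of sphingosine-1-phosphate on HDL, ranged from 154 to 189 CPM (median 164) against 68.3 to 127 CPM (median 93.4), with no overlap, and rose by 0.84 ± 0.12 (adjusted p = 5.09e-06). Lcat, Scarb1 and Apoa1, which act in HDL maturation and uptake, rose by 0.53 (adjusted p = 0.00272), 0.36 (adjusted p = 0.0172) and 0.43 (adjusted p = 0.0292).

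Secreted hepatokines had 5 of 23 higher and 1 lower (7 and 1 without mouse 6), among them Ahsg (fetuin-A, 0.51 ± 0.11, adjusted p = 0.00445) and Enho, which encodes adropin (1.31 ± 0.31, adjusted p = 0.00652). Of 22 glucose and glycogen genes, Slc2a4, the insulin-responsive transporter GLUT4 (1.17 ± 0.29, adjusted p = 0.0124), and Ppp1r3c, a glycogen-targeting phosphatase subunit (0.97 ± 0.29, adjusted p = 0.0431), were higher (3 genes without mouse 6). GLUT4 is better known from muscle and fat, and its level here was 9.13 to 23.5 CPM (median 14.4) in the combination. Pck1, the gluconeogenic enzyme, did not pass (-0.07 ± 0.27, adjusted p = 0.938). Of 20 steroid and retinoid enzymes, 3 were higher (Cyp17a1, Rbp4 and Hsd11b1) and 2 lower (Aldh1a7 and Lrat). Without mouse 6, Cyp26a1 was higher too.

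The genes through which zalfermin itself could act in liver were mostly not called. Of 9 FGF receptor, co-receptor and ligand genes tested, only Fgf1 was called (0.72 ± 0.19, adjusted p = 0.0224). That call was lost without combination mouse 5 or 6 or semaglutide mouse 2, 4, 5 or 7, and with only these groups in the fit. The co-receptor Klb was at 29.3 to 58.3 CPM (median 39.4) against 23.7 to 50.8 CPM (median 33.3) (0.26 ± 0.14, adjusted p = 0.351). Fgfr1 had a value of -0.31 ± 0.23 (adjusted p = 0.516) and Fgf21, the hormone that zalfermin mimics, -0.10 ± 0.38 (adjusted p = 0.934). Fgfr4, the receptor of the bile acid signal FGF15, was called only without mouse 6 (0.38, adjusted p = 0.0273). None of 19 ERK feedback genes, which rise when FGF receptors signal through MAP kinase, passed in either direction with 56 or with 55 mice.

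Fibrillar collagens are made in the liver mainly by activated stellate cells. Of 25 collagen chains tested, 7 were lower and 0 higher (12 and 0 without mouse 6), and 22 had a negative log2 fold change, with a median of -0.73 (-0.87 without mouse 6). Col3a1 was at 38.6 to 158 CPM (median 76.1) in the combination and 34.4 to 279 CPM (median 190.0) in low-dose semaglutide. All of the overlap came from mouse 6 at 34.4 CPM, since the other 7 mice were at 175 to 279 CPM. Col3a1 fell by 1.3 ± 0.31 (adjusted p = 0.00825), and by 1.45 without mouse 6 (adjusted p = 0.000587). Col14a1, a fibril-associated collagen, fell by 0.86 ± 0.17 (adjusted p = 0.00159). Col1a1, the main chain of scar collagen, passed only without mouse 6: -1.14 ± 0.37 (adjusted p = 0.0677) with it and -1.31 (adjusted p = 0.0133) without. With only these groups in the fit, 4 collagens were lower.

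Of 41 other matrix proteins, 6 were lower (10, and 1 higher, without mouse 6), among them periostin (Postn, -1.04 ± 0.26, adjusted p = 0.0106) and tenascin C (Tnc, -1.27 ± 0.32, adjusted p = 0.0121). That count was 3 without any one of combination mice 1 or 3 or semaglutide mice 2 or 5, and 2 with only these groups in the fit. Of 29 collagen enzymes and matrix proteases, only the cross-linking oxidase Loxl2 was called (-1.08 ± 0.25, adjusted p = 0.00555), and Timp1, the protease inhibitor of fibrosis, was not (-0.73, adjusted p = 0.266). Of 22 fibrogenic signals, the TGF-beta receptor Tgfbr2 (-0.68 ± 0.16, adjusted p = 0.00706) and Inhbb (-0.96 ± 0.25, adjusted p = 0.0145) were lower, and without mouse 6 Tgfb1 was lower too. Beside these, 4 of 18 stellate cell markers were lower (Col3a1, Colec11, Hgf and Lrat; 7 without mouse 6) and all 18 had negative values. Their summed level was 436 to 845 CPM in the combination, and in low-dose semaglutide 870.1 to 1199 CPM in 7 mice and 459.8 CPM in mouse 6. The count of 4 was 1 or 2 without any one of combination mice 1, 5, 6 or 8 or semaglutide mice 1, 2, 7 or 8.

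The other marker lists were read in the same way. Of lipid-associated macrophage markers, 2 of 17 were lower (Lgals1 and the droplet coat Plin2), and the summed level was 2080 to 3594 CPM against 2229 to 3848 CPM, or 3191 to 3848 CPM without mouse 6. None passed among 14 Kupffer cell, 14 monocyte and neutrophil, 8 B and plasma cell, 12 cholangiocyte, 2 pancreas and 3 intestine and stomach markers tested. Of 15 sinusoidal endothelial markers, Pecam1 was lower (4 were without mouse 6), and of 7 red blood cell markers, Alas2 was (-0.74 ± 0.19, adjusted p = 0.0121). Of 31 chemokines, receptors and cytokines, only Cxcl14 was lower, and none of 25 interferon-stimulated genes or 10 MHC class II genes passed. The calls of Pecam1 and Cxcl14 were lost with only these groups in the fit. Of 11 hepatocyte markers, 5 were higher (7 without mouse 6), and their summed level was 115394 to 170405 CPM in the combination and 90839 to 145550 CPM in low-dose semaglutide (at most 122116 without mouse 6). That count of 5 was 2 or 3 without any one of combination mice 1, 2 or 3 or semaglutide mice 1, 2, 3, 5 or 8, and 1 with only these groups in the fit. The part of these shifts in hepatocyte and stellate markers in the results above was not tested.

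Themis, a gene known for the selection of T cells in the thymus, was among the 12 largest falls. It was at 0.540 to 3.16 CPM (median 1.53) in the combination and 3.75 to 35.1 CPM (median 23.7) in low-dose semaglutide, with no overlap, and mouse 6 was the lowest of its group at 3.75 CPM, with the others at 13.5 to 35.1 CPM. It fell by 3.54 ± 0.41 (adjusted p = 5.3e-08), and by 3.69 without mouse 6 (adjusted p = 2.58e-09). It was the only one of 17 tested T and NK cell markers to pass. The T cell receptor subunits Cd3e and Cd3g, which define the lineage, were at 0.385 to 2.86 CPM (median 1.32) and 0.308 to 3.45 CPM (median 1.75) in the combination and 0.704 to 2.05 CPM (median 1.16) and 0.809 to 4.03 CPM (median 1.81) in low-dose semaglutide, with log2 fold changes of -0.01 ± 0.42 (adjusted p = 0.997) and -0.30 ± 0.42 (adjusted p = 0.776).

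Several other large falls were in genes of epithelial stress and signaling. Of 23 apoptosis and keratin stress genes, Sdcbp2 (syntenin-2), Sprr1a, a cornified envelope precursor, and Ly6d were lower, and the keratins Krt8 and Krt18 joined them without mouse 6. Sdcbp2 was at 0 to 0.682 CPM (median 0.138) in the combination, against 0.117 CPM in mouse 6 and 4.61 to 17.7 CPM in the other 7 semaglutide mice, and fell by 4.93 ± 0.86 (adjusted p = 0.000258). Fam83a (-2.39 ± 0.39, adjusted p = 0.000102), the adaptor Shc2 (-2.15 ± 0.47, adjusted p = 0.00363) and the ephrin receptor Ephb2 (-2.01 ± 0.39, adjusted p = 0.0008) shared its pattern. Without mouse 6, the values were -5.11 for Sdcbp2, -2.56 for Fam83a, -2.33 for Shc2 and -2.19 for Ephb2. In all 3 of them, mouse 6 lay below every other mouse of its group, and for Ephb2 it was at 0.704 CPM against 18.1 to 27.5 CPM in the other 7. Sprr1a fell by 2.98 ± 0.66 (adjusted p = 0.00419). The lectin Clec2h fell by 2.20 ± 0.66 (adjusted p = 0.0423) to a median of 0.250 CPM, but lost the threshold without any one of combination mice 1, 3, 4, 5, 6 or 7 or semaglutide mice 1, 3 or 4 (adjusted p up to 0.142). In chow-fed mice it was higher than in DIO-MASH vehicle mice, by 3.60 (adjusted p = 3.62e-07).

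Of 30 cell cycle genes, 28 had a negative value, but only the replication helicase subunit Mcm2 passed (-1.03 ± 0.22, adjusted p = 0.00257), and 5 did without mouse 6. All 29 subunits of oxidative phosphorylation had positive values with a median of 0.11, and 1, the succinate dehydrogenase subunit Sdhd, was called (0.31 ± 0.06, adjusted p = 0.002; 4 without mouse 6). Among 21 ATF4 targets, only Atf4 itself, the stress-response factor, was higher (0.57 ± 0.13, adjusted p = 0.00459) and 0 were lower. Of these 21, 13 had a negative value, with a median of -0.15, and without mouse 6 Mthfd2 and Psat1 were lower. None of 21 endoplasmic reticulum chaperones passed, Hspa5 among them (0.24 ± 0.17, adjusted p = 0.521), and without mouse 6 Edem1 was higher. Of 22 NRF2 and glutathione genes, Gsta3 was higher and Srxn1 and Cbr3 lower, and without mouse 6 Gstm3 was lower too. Of 26 genes of cholesterol synthesis and uptake, Pmvk of the mevalonate pathway was higher (0.78 ± 0.23, adjusted p = 0.0358), and without mouse 6 Ebp was higher too. The call of Pmvk was lost with only these groups in the fit. Over all genes tested, 1.93% were called higher and 2.28% lower (3.93% and 4.42% without mouse 6), so 1 call in a list of this size is little above those shares. Members of a list can vary together, so a shared sign is not a count of separate results.

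Acute phase proteins, which hepatocytes secrete in inflammation, had 9 of 24 higher and 0 lower (also 9 and 0 without mouse 6), with a median of 0.63. Levels of several of them were highest in 1 combination mouse. Combination mouse 6 had 2043 CPM of the protease inhibitor Serpina3n, against 424.6 to 1053 CPM in the other 7 combination mice and 389 to 549 CPM in low-dose semaglutide. It had 9009 CPM of Itih4 (others 3314 to 5686, and 2153 to 3516 in low-dose semaglutide) and 9124 CPM of the fibrinogen chain Fgb (others 2971 to 5337). Itih4 had a log2 fold change of 0.77 ± 0.18 (adjusted p = 0.00731) and Serpina3n 0.82 ± 0.21 (adjusted p = 0.0117). Without combination mouse 6, 1 of the 24 passed, as with only these groups in the fit, and 2 to 5 passed without combination mouse 8 or semaglutide mouse 2, 3, 5, 7 or 8. The metallothioneins Mt2 (2.26 ± 0.69, adjusted p = 0.045) and Mt1 (1.81 ± 0.55, adjusted p = 0.0461), which bind zinc, were in this list. Mt2 spread from 3.47 to 199.6 CPM (median 40.5) in the combination, with its high values in mice 1, 6 and 8, and its call was lost without any one of these 3 or of semaglutide mice 2, 3, 5, 7 or 8 (adjusted p up to 0.127).

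Clock gene levels were spread widely among the combination mice. Arntl (BMAL1) with a partner such as Npas2 drives the day-night cycle of transcription, Cry1 represses that drive, Nfil3 and Dbp act in opposite phases on D-box sites, and Nr1d1 (REV-ERB alpha) represses Arntl. Arntl was at 14.8, 17.6 and 24.4 CPM in combination mice 4, 5 and 6, at 1.04 to 4.66 CPM in the other 5 combination mice and at 0.612 to 2.39 CPM in low-dose semaglutide. Cry1 was at 37, 44.2 and 49.1 CPM in the same 3 mice, at 7.02 to 11.49 CPM in the other 5 and at 5.33 to 16.1 CPM in low-dose semaglutide. Nfil3 was at 37.1, 32 and 60.2 CPM in them, against 12.5 to 23.2 and 11.9 to 20.5 CPM. These 3 mice were also the lowest of the combination for the opposite arm: Dbp was at 26, 16.2 and 5.86 CPM in them, at 68.8 to 170.8 CPM in the other 5 and at 52.3 to 219 CPM in low-dose semaglutide. Nr1d1 was at 24.9, 7.35 and 14.3 CPM in them and at 50.7 to 136 CPM in the other 5, and in low-dose semaglutide it was at 25.4 to 167 CPM. Low-dose semaglutide mouse 8 had the lowest Nr1d1 and Dbp and the highest Cry1 of its group.

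As group differences, Arntl (2.55 ± 0.49, adjusted p = 0.0008), Npas2 (3.33 ± 0.73, adjusted p = 0.00375), Cry1 (1.47 ± 0.33, adjusted p = 0.00429) and Nfil3 (0.88 ± 0.25, adjusted p = 0.0342) were called higher of 19 clock genes, and Bhlhe41 lower (-1.12 ± 0.31, adjusted p = 0.0255). Dbp (-0.64 ± 0.36, adjusted p = 0.354) and Nr1d1 (-0.66 ± 0.43, adjusted p = 0.462) did not pass. The 4 calls were 2 without combination mouse 6 and 1 with only these groups in the fit. The call of Bhlhe41 was lost in that fit too, and without any one of combination mice 3, 4, 5 or 6 or semaglutide mice 3 or 4. The calcium pump gene Atp2b2 was highest in the same 3 mice, at 8.68, 19.5 and 20.7 CPM, and rose by 2.06 ± 0.50 (adjusted p = 0.00912). Mouse 4 carries a label number of the first number series and mice 5 and 6 of the second. The clock time of sampling is not given in the sources used here. Nr1d1 and the mice named here were chosen after their values were seen.

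**Figure D3:**
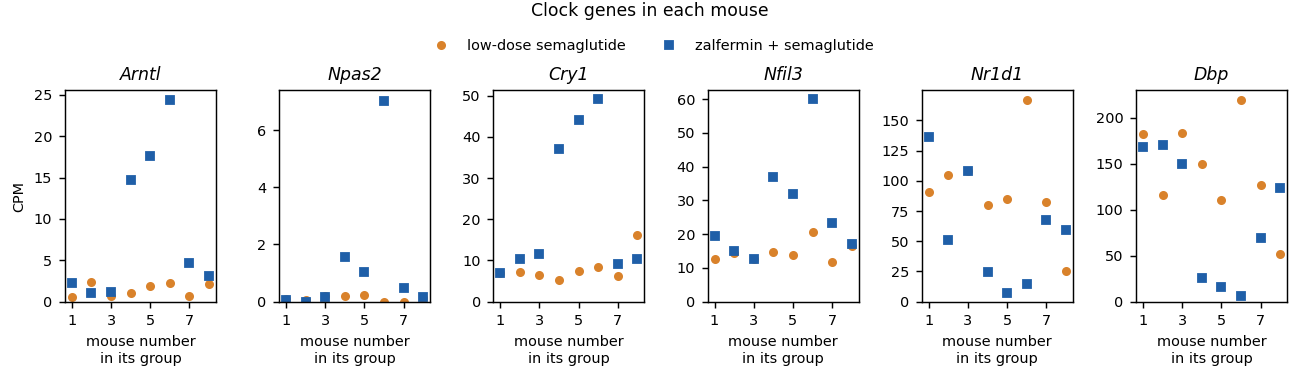
Expression (CPM, linear axes) of 6 clock genes in each of the 8 combination mice (blue squares) and 8 low-dose semaglutide mice (orange circles), by mouse number within the group. Combination mice 4, 5 and 6 are high for Arntl, Npas2, Cry1 and Nfil3 and low for Nr1d1 and Dbp.

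The same genes were read in comparisons that share no mice with this one. With low-dose zalfermin alone against DIO-MASH vehicle, 66 genes (0.468%) differed, with high-dose zalfermin 2429 (17.2%), and in chow-fed mice against DIO-MASH vehicle 7811 (55.4%). Without mouse 6 in the fit, the counts were 138 (0.978%), 2596 (18.4%) and 7857 (55.7%), although none of these groups holds that mouse, and DESeq2's Wald test gave 211 for low-dose zalfermin. These 3 share the vehicle mice with each other. Of the 272 DEGs higher in the combination, 240 (88.2%) also had a positive value with low-dose zalfermin and 264 (97.1%) with high-dose zalfermin, and of the 322 lower, 277 (86%) and 315 (97.8%) had a negative one. Of all 14105 genes, 46% and 47% had a positive value in these comparisons. Low-dose zalfermin called 37 of the 594 in the same direction (6.23% of the 594 and 56.1% of its 66) and high-dose zalfermin 434 (73.1% and 17.9%), and neither called any in the opposite direction. Over 55 mice, low-dose zalfermin called 99 of the 1178 in the same direction (8.4% of the 1178 and 71.7% of its 138) and high-dose zalfermin 853 (72.4% and 32.9%). For the median DEG, the log2 fold change with low-dose zalfermin was 0.354 times that of adding zalfermin to semaglutide, and with high-dose zalfermin 1.04 times. The DEGs were chosen for passing when zalfermin was added to semaglutide, which tends to enlarge that value and so to lower both ratios. Across all genes, which are not independent replicates, Pearson's r with this comparison was 0.265 for low-dose and 0.553 for high-dose zalfermin.

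**Figure D4:**
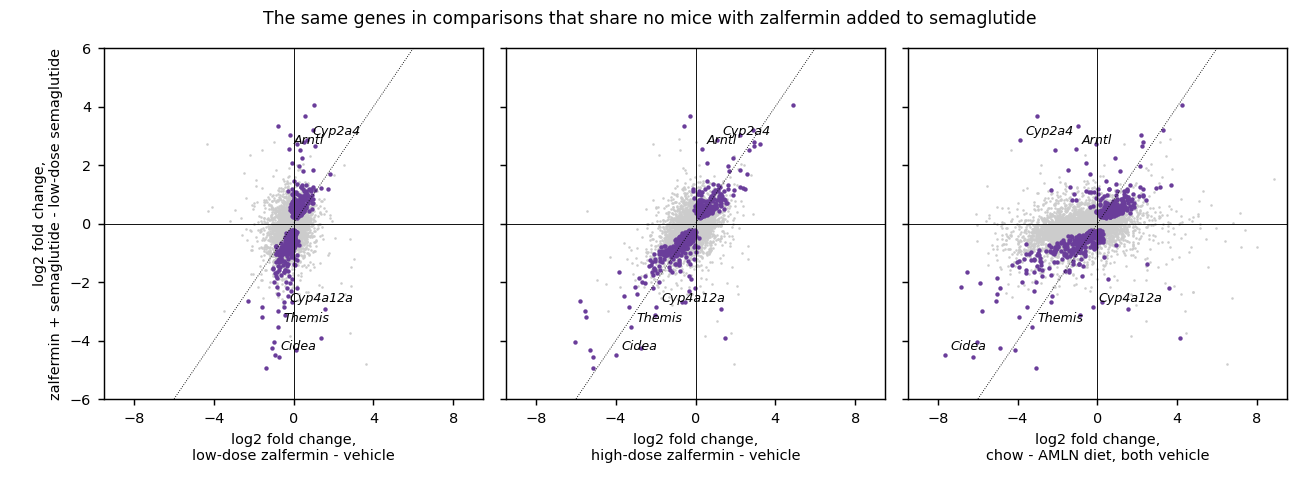
Log2 fold change of each of 14105 genes with zalfermin added to low-dose semaglutide (vertical axis) against low-dose zalfermin, high-dose zalfermin or chow feeding, each relative to DIO-MASH vehicle mice (horizontal axes). Purple points are the 594 DEGs, grey points the other genes, and the dotted line marks equal values. DEGs lie closer to the vertical axis for low-dose zalfermin (median ratio 0.354) than for high-dose zalfermin (1.04), and their choice by the vertical value tends to lower both ratios.

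The diet comparison gives the direction of a normal liver. Of the 272 higher DEGs, 249 (91.5%) were higher in chow-fed than in DIO-MASH vehicle mice, and of the 322 lower, 287 (89.1%) were lower, where 49.5% of all genes were higher in chow-fed mice. Chow feeding called 467 in the same direction (78.6% of the 594 and 5.98% of its 7811) and 18 in the opposite one. Over 55 mice these were 957 (81.2% and 12.2%) and 26. The female-biased Cyp2a4, Cyp2b13, Sult2a2 and Slc22a27 were among these 18, as were Slc2a4 and Clec2h. For female-biased genes as a list, the median was 1.54 with zalfermin added to semaglutide, 0.34 with low-dose zalfermin, 1.3 with high-dose zalfermin and 0.31 with chow. For male-biased genes, the medians were -1.08, 0.21, -0.28 and 0.95 in the same order. Collagens had medians of -0.73, -0.48, -1.13 and -2.20, urea cycle and amino acid genes 0.31, 0.50, 0.85 and 1.02, and lipid droplet genes -0.20, -0.03, -0.24 and -0.54.

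Whether low-dose zalfermin moved a gene differently on top of semaglutide than on its own was tested, taking the doses from the study's methods. The measure was the difference between the log2 fold changes of the combination against low-dose semaglutide and of low-dose zalfermin against DIO-MASH vehicle. It passed for 2 genes (0.0142%) with 56 mice, where 952 had an unadjusted p under 0.05, and for 7 (0.0496%) without mouse 6. DESeq2's Wald test gave 14 and 21. The 2 genes were Cidea and Themis, and both fell further in the combination.

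Cidea averaged 46.4 ± 11.7 CPM in DIO-MASH vehicle mice (SD, n = 8), 24.6 ± 12 with zalfermin alone at its low dose, 34.5 ± 13.5 with low-dose semaglutide and 1.41 ± 1.66 with the combination. It was at 2.94 ± 2.70 with high-dose zalfermin, 21 ± 11.6 with high-dose semaglutide and 0.241 ± 0.289 in chow-fed mice. The difference between comparisons was -3.59 ± 0.58 on the log2 scale (adjusted p = 0.00127), and -3.73 without mouse 6 (adjusted p = 0.00019), and it passed under all 25 alternatives run. Themis averaged 33.1 ± 8.81 CPM with vehicle, 19.2 ± 7.85 with zalfermin alone at its low dose, 21.4 ± 9.78 with low-dose semaglutide and 1.84 ± 1.10 with the combination (SD, n = 8). Its difference was -2.75 ± 0.53 (adjusted p = 0.0216). It passed under 19 of 25 alternatives and missed the threshold, with adjusted p up to 0.0769, without combination mouse 1, 3 or 7 or semaglutide mouse 1 or 3, and with the label number series in the model.

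Without mouse 6, Cyp4a12a, Cyp4a12b, Ermp1, Avpr1a and Cyp39a1 passed as well. Cyp4a12a averaged 181 ± 101 CPM with vehicle, 132 ± 57.7 with zalfermin alone at its low dose, 143 ± 76.3 with low-dose semaglutide and 19.8 ± 9.91 with the combination (SD, n = 8), and 157 ± 78.4 in chow-fed mice. Its difference between comparisons was -2.39 (adjusted p = 0.107) with 56 mice and -2.50 (adjusted p = 0.0361) with 55. For Cyp4a12b these were -2.69 and -2.83 (adjusted p = 0.0296 with 55 mice). Cyp39a1 averaged 21 ± 3.97 CPM with vehicle, 27.8 ± 4.18 with zalfermin alone at its low dose, 26.8 ± 4.49 with low-dose semaglutide, 66.3 ± 12.6 with the combination and 64.6 ± 11.3 in chow-fed mice. Its difference was 0.90 (adjusted p = 0.107) with 56 mice and 0.95 (adjusted p = 0.0433) with 55, and that of Avpr1a was 1.70 (adjusted p = 0.158) and 1.92 (adjusted p = 0.0285). Among the 5 genes of each sign with the smallest p, Aox3 (-0.93, adjusted p = 0.158), Gtf3a (0.52, adjusted p = 0.158), Arntl (2.80, adjusted p = 0.215) and Atf4 (0.72, adjusted p = 0.215) did not pass with 56 or with 55 mice. Cyp2b9, which rose in the combination, was outside that rule. It had a difference of 2.55 ± 1.03 that did not pass (adjusted p = 0.628).

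**Figure D5:**
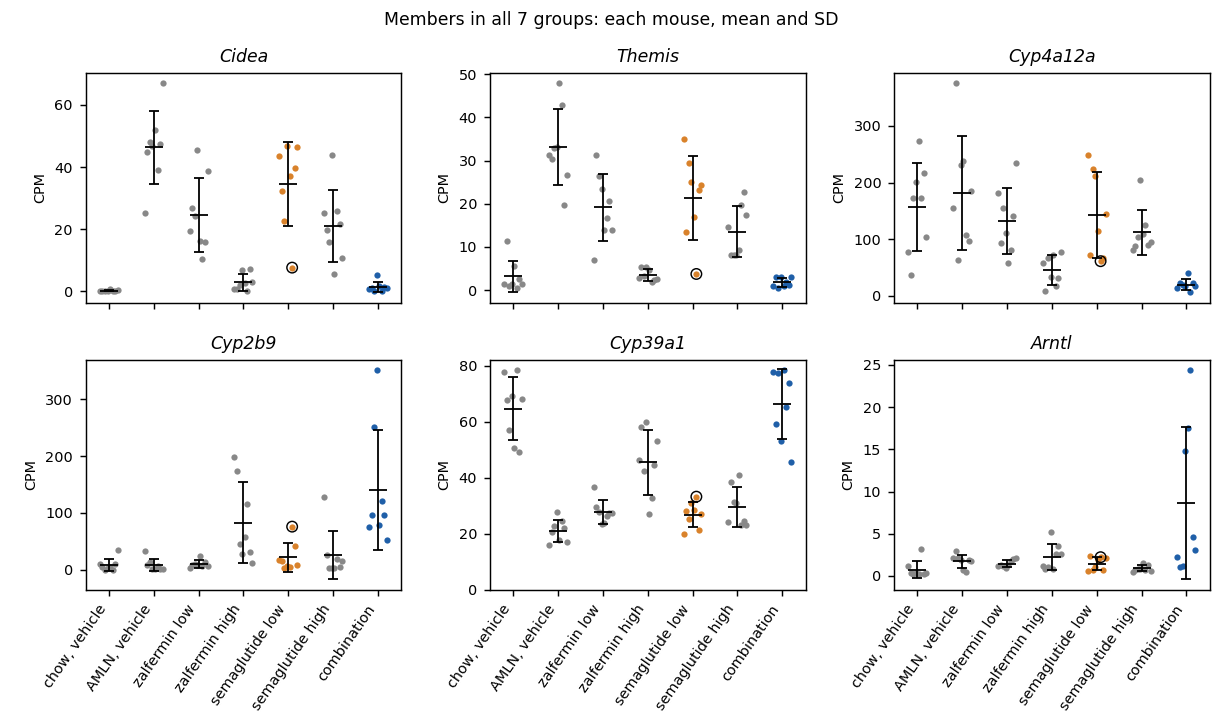
Expression (CPM, linear axes) of Cidea, Themis, Cyp4a12a, Cyp2b9, Cyp39a1 and Arntl in each mouse of all 7 groups, with horizontal bars for the mean and error bars for the SD (n = 8). The combination (blue) is near the chow-fed mice for Cidea, Themis and Cyp39a1 and below the other groups' means for Cyp4a12a; low-dose semaglutide is in orange, with mouse 6 circled.

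The label numbers fall into number series, and both groups had 4, 2 and 2 mice in the first 3 of them. The 24 genes with the largest changes were chosen over these same mice, so their sign within subsets of them is not separate support. Of these 24, 23 kept their sign within all 3 series with mouse 6, and 23 without it. The exceptions were Shc2, which in the second series differed by 0.25 on the log2 scale with mouse 6 and by -2.82 without it, and Clec2h, which differed by -1.95 and 0.03.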

How the data were processed

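Liver RNA of 56 mice in 7 groups of 8 was sequenced from a stranded mRNA library. The deposited values are whole-number read counts per gene, made by the authors before any normalization, for 21935 mouse genes, of which 4352 had no read. The submitters' processing notes name Trim Galore 0.6.4, Salmon 1.9.0 and the build GRCm38, while the study's methods name STAR as aligner, and the setting for strand and for reads shared by genes is not given in the sources used here. Groups came from the labelled treatment and diet.

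Genes with at least 5 reads in at least 3 mice (14105) were fitted with edgeR 4.0.16 (R 4.3.3; TMM, quasi-likelihood F test, 7 groups in 1 model, Benjamini-Hochberg adjustment over all genes tested, threshold 0.05), as 56 mice and as 55 without low-dose semaglutide mouse 6. The difference between comparisons was a contrast of 4 groups in the same model. Fold changes are on the log2 scale as estimated in that fit, and errors are SE. A prior count of 2 entered only the log2 CPM used for correlations between mice and differences within number series. Biological variation between mice was 22.6%, and the smallest chi-square per degree of freedom between 2 mice of a group was 7.57, so no library was counted as a duplicate. Depth limits low genes: intervals over mice, not reads, set the precision here.

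The largest changes named are the 12 highest and 12 lowest log2 fold changes among genes called with 56 and with 55 mice at a mean of 1 CPM or more; up to 6 members of each list with the smallest p, and 5 genes of each sign for the difference between comparisons, were also named. Of the 24, 1 gene is not reported here, but it is included in the counts. The 33 gene lists, 15 marker lists and the rules were chosen with earlier results of these data known. Body weight, a covariate in the study, was not analysed here. In simulated counts of 13977 genes without an outlying mouse, 200 genes at 1 CPM or more were changed by 1 log2 unit in the combination. Of these, 90% were recovered for the combination against low-dose semaglutide (4.26% of calls false), and 77% for the difference between comparisons (5.52% false). These rates do not cover smaller changes or lower genes, and the median absolute log2 fold change of the 594 DEGs was 0.54. Alternatives were DESeq2 1.42.0, its size factors, other count filters, the number series as a covariate, only the groups compared, adjacent mouse numbers as a block and each of the 16 mice left out.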

Additional observations from a re-analysis of the deposited data

Results flagged for a closer look

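For the 24 genes with the largest changes, the lowest and the highest mouse of each group were compared with the rest of the group on the scale of log2(CPM + 0.1), by the gap to the nearest mouse as a share of the group's range. Of 48 sets of 8 values, 13 had a mouse past Dixon's 95% critical value, where chance gives about 1 in 20 for separate sets of normal values. These sets are not separate, since the same mice were read in 24 genes chosen for large changes. Where a mouse had few reads, the added 0.1 sets part of the gap. Low-dose semaglutide mouse 6 made up 9 of the 13. It was the highest of its group for Slc22a26 (6.33 CPM, gap 0.6203), and the lowest for Ephb2 (0.8818), Shc2 (0.7383), Cidec (0.7261), Sdcbp2 (0.6984), Fam83a (0.6749), Cidea (0.5983), Themis (0.5704) and Sprr1a (0.5682). For these genes it lay on the side of the combination in each case. Combination mouse 3 was the lowest of its group for Shc2 (0.6499), Ephb2 (0.6486) and Fam83a (0.612), and combination mouse 4 was the highest for Cyp2b13 (21.5 CPM, gap 0.5774).

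Cidea and Themis were also picked out because the difference between comparisons passed the threshold for them. The difference between the 2 log2 fold changes was -3.587 for Cidea (adjusted p = 0.00127 by edgeR's quasi-likelihood test) and -2.754 for Themis (adjusted p = 0.0216). Each fold change is of low-dose zalfermin against its own control only if the doses in the study's methods hold.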

How the results depend on the processing

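Over 26 alternative settings, the 24 genes with the largest changes kept their direction in all 624 values, and 580 values passed the threshold. The 44 that did not belong to Cyp2c40, Cyp2c69, Mt2, Atp2b2, Clec2h, Arntl and Shc2, the last 2 only in the fit by adjacent mouse numbers below. The 24 genes were chosen for large changes among genes called both with all mice and without mouse 6. The fit without mouse 6 is among the settings, so its calls were fixed by that choice. The other settings refit the same mice or most of them, so an unchanged direction is not separate support. The count of genes that differed between the combination and low-dose semaglutide (594) was 583 with DESeq2's size factors, 509 without the filter on low counts, 624 with a stricter one, 779 with DESeq2's Wald test, 722 with the number series as a covariate and 298 with only these groups in the fit. Leaving out 1 mouse gave 397 to 1178, the highest without semaglutide mouse 6 and at most 660 without any other. Settings chosen after seeing the data gave, without mouse 6, 1388 with DESeq2 and 1400 with the number series, and 888 without combination mouse 3 as well. The difference between comparisons (2 genes) gave 14 with DESeq2, 1 with the number series, 4 with only the 4 groups, 1 to 7 with 1 mouse left out, and without mouse 6 gave 21 with DESeq2, 7 with the number series and 4 without combination mouse 3 as well. Low-dose zalfermin against vehicle (66 genes) gave 211, 123, 141 and 42 to 138 in the same order, and 252, 187 and 152 without mouse 6. The cause of these shifts was not tested. The groups share no replicate number, and no label pairs their mice, but each combination mouse has the number after that of a low-dose semaglutide mouse. As a replicate block in a fit of only these groups, also chosen after seeing the data, these 8 pairs gave 374 genes, against 298 without the block. The deviations of neighbors from their group means correlated at -0.0992 to 0.358, over 0.1 in 2 of 8 pairs, and 2 of 8 combination mice correlated best with their own neighbor, so the numbers were not taken as pairs. Depth limits the genes under 1 CPM, where single mice had few or no reads.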

Other observations

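Some of the other clock genes also set combination mice 4, 5 and 6 apart from the other 5. Per3 was at 7.26, 4.14 and 1.69 CPM in combination mice 4, 5 and 6, Tef at 108, 94.6 and 35.3 CPM and Nr1d2 at 54.7, 26.3 and 7.82 CPM. Ciart, a repressor of the clock, was at 0.31, 0.828 and 0 CPM in them. Others did not: Hlf was at 60.7, 87.2 and 61.1 CPM in these mice and at 62.6 to 79.9 CPM in the other 5, and Per2 at 14.2, 18.7 and 15 CPM against 14.8 to 19.1 CPM. These genes and mice were chosen after their values were seen.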
